A study of Paxillus involutus and Laccaria bicolor with 24 samples.

Results

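The *Paxillus involutus* mycelium sampled after prolonged glucose depletion (t4) was compared here with the actively growing mycelium of the same experiment (t1), across every gene model that carried enough reads to be tested. The comparison used 6 of the 24 RNA-seq libraries of the series, 3 at t4 and 3 at t1, and the members were the 12032 of 17968 gene models whose counts averaged 11 or more in the 12 *P. involutus* libraries. The t4 libraries came from day 13 and were labelled prolonged glucose depletion. The t1 libraries came from day 2 and were labelled active growth, and the 2 stages between them were ammonium depletion at day 5 (t2) and glucose depletion at day 9 (t3). All groups were wild-type mycelium of strain ATCC 200175, grown in petri dishes on glass beads in Melin-Norkrans medium, deprived of nitrogen, washed, and then given a hot-water extract of spruce forest soil organic matter with added glucose. The mycelium was a single strain in liquid without a host tree. Between t1 and t4 the cultures aged, lost ammonium and then lost glucose. According to the study, biomass also declined once glucose was gone, and lignin residues in the extract were oxidized. Effects of all these changes cannot be told apart in this comparison. The labels number the samples as biological replicates.

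*P. involutus* is an ectomycorrhizal basidiomycete, a fungus that sheathes the fine roots of trees, receives sugar from them, and forages in the soil for nitrogen. In fungi, loss of glucose can relieve the repression of genes for other carbon sources and lower the production of ribosomes. In some fungi it can also switch on autophagy, the recycling of the cell's own components in the vacuole. These are background facts about fungi, and the gene models concerned were not picked out here, because the model names of the count table matched none of the 18033 genes of the reference table. The comparison is therefore described through the whole transcriptome and through 4 models named by their identifiers as the count table gives them.

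The t4 libraries held between 10219492 and 10896080 counted reads, against 10466363 to 13595446 in the t1 libraries, and the tested models took at least 99.9% of the reads of each. Replicate libraries differed by more than counting noise, with a chi-square per degree of freedom of 5.02 to 12.4 between pairs of t4 libraries and of 2.11 to 8.10 between pairs of t1 libraries, so each was kept as a separate sample. The median SD of log2 CPM, the level of a model as its scaled count in a library brought to a common size, over 3 replicates was 0.10 at t4 and 0.11 at t1. Bulk counts give each model's share of the reads, so less RNA per cell and fewer cells that express a gene cannot be told apart, and the amount of RNA per culture is not measured.

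The reads of the starved mycelium were spread over more genes than those of the growing mycelium. The 10 most abundant models held 5.84, 5.74 and 5.34% of the reads in the t4 libraries, against 7.82, 7.70 and 8.12% in the t1 libraries. The difference of the means, t4 minus t1, was -2.24 percentage points, and the groups did not overlap. The counting error of these shares was small, with a 95% Wilson interval of 5.32 to 5.35% in the lowest t4 library and of 7.68 to 7.71% in the lowest t1 library, and such intervals cover counting error only. When counts were divided by the authors' normalization factors for gene length, G/C content and depth, the difference shrank to -0.33 points, so its size rests on the scaling. It took 1076, 1073 and 1069 models to hold 50% of the reads at t4, against 725, 740 and 732 models at t1. That difference of 340 models was 363 models with the authors' factors.

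The number of models detected, with at least 1 read, overlapped between the states, whereas more models had at least 10 reads at t4. At t4 between 13196 and 13245 models had at least 1 read, against 13160 to 13258 models at t1, ranges that overlap. Models with at least 10 reads numbered 12159 to 12179 at t4 and 11878 to 12141 at t1. Each t4 library lay above each t1 library by this measure, although the deepest library was one of t1. Neither number was brought to a common depth, and the t1 libraries were deeper on average. With 3 libraries against 3 the smallest p of a two-sided exact permutation test is 0.1. The shares of the 10 and the 100 most abundant models, the numbers of models holding 50 and 90% of the reads and the number with at least 10 reads all gave this p (0.12 after Benjamini-Hochberg adjustment over 6 measures), and the number detected gave p = 0.8 in the same exact permutation test.

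**Figure D1:**
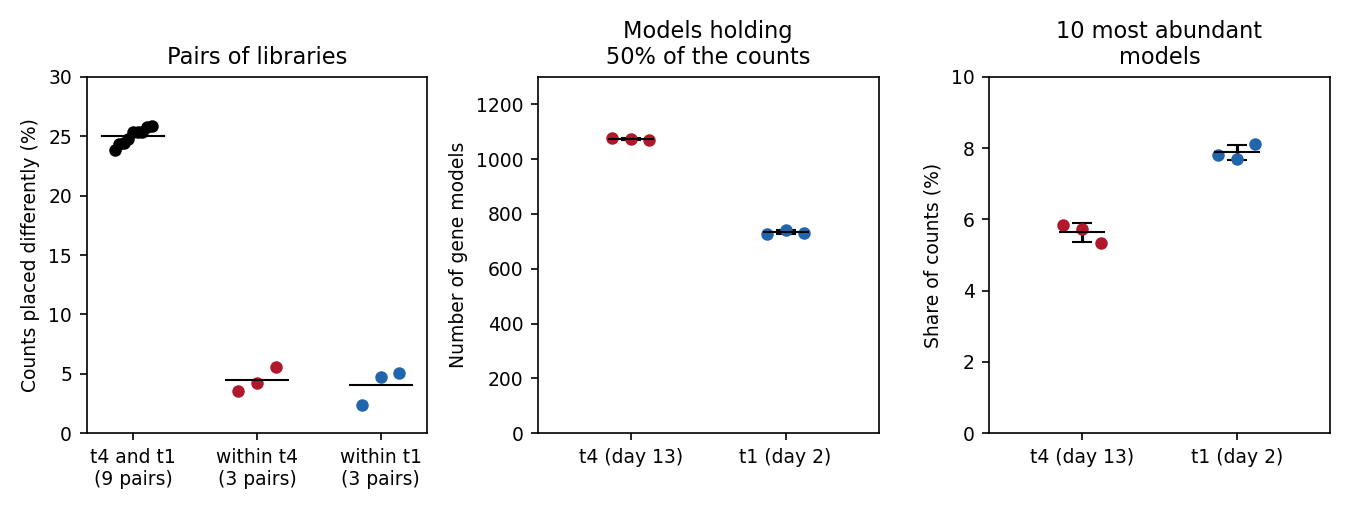
The left panel shows the share of counts (%) placed on different gene models in each pair of libraries, with a bar at the mean, and the other panels show for each t4 and t1 library (points, with mean and SD) the number of models holding 50% of the counts and the share (%) on the 10 most abundant. The 3 t4 libraries needed 1069 to 1076 models to hold 50% of their reads, against 725 to 740 models in the 3 t1 libraries.

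Starved and growing mycelium differed in where their reads lay by much more than replicates did. The share of reads that would have to move to turn one library's distribution over models into the other's was 25% on average between a t4 and a t1 library, with a range of 23.8 to 25.8% over the 9 pairs. Between replicates it averaged 4.46% at t4, with a range of 3.55 to 5.56%, and 4.04% at t1, with a range of 2.37 to 5.05%. The lowest pair between the groups thus lay above the highest pair within either of them. By the same measure t4 stood on average 10.9% from t3 and 19.8% from t2, whereas t1 stood 12.4% from t2 and 18.7% from t3. The single exact permutation test of t4 against t1 gave its smallest possible p, 0.1.

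Most of the transcriptome differed between the starved and the growing mycelium, mostly by less than 2-fold. With the quasi-likelihood test of edgeR and a Benjamini-Hochberg false discovery rate of 1%, 3872 models rose at t4 and 3672 fell, which is 32.2 and 30.5% of the models tested and 62.7% together. At least a 2-fold estimate was reached by 1096 models that rose (9.11%) and 1207 that fell (10%), or 19.1% together. At 4-fold there were 161 risers and 152 fallers, at 8-fold 54 and 37, and at 16-fold 22 and 10. Tested against a 2-fold change rather than against no change (glmTreat in edgeR), 469 models rose and 751 fell at the same false discovery rate. The typical change was modest, with a median absolute log2 fold change of 0.46 over all tested models and of 0.71 over those called. On the scale used here the 5th percentile of log2 fold change was -1.41 and the 95th was 1.26. Scaled by library size only, 1898 models rose and 768 fell by at least 2-fold, so the balance of the tails depends on scaling.

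The separation of the replicates went with these calls. Among the 7544 models called, 7495 had no overlap between the 3 t4 and the 3 t1 libraries in scaled CPM, and among the 2303 past 2-fold it was 2302. The calls rest on the same libraries and counts, so this match is largely built in and is a description. Over all tested models the t4 libraries lay wholly above the t1 libraries in 4578 (38%) and wholly below in 4180 (34.7%). The 4488 models that were not called, 37.3% of those tested, had a median absolute log2 difference of 0.16, and in 1263 of them the libraries were nonetheless apart. Missing the threshold does not show that these genes were alike in the 2 states.

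The balance of risers and fallers depends on how the libraries are put on 1 scale. The trimmed mean of M-values (TMM) used here gave factors of 1.07 to 1.08 to the t4 libraries, against 0.883 to 0.895 to the t1 libraries. The median log2 change of all tested models was 0.04 with it. Scaled by library size only, the median moved to 0.32, and 5859 models rose while 2403 fell, so that risers made up 70.9% of the calls in place of 51.3%. With the authors' factors as offsets, 3301 rose and 3440 fell, and risers made up 49.0% of the calls. The fold changes, calls and CPM below are given relative to the TMM scale unless another scaling is named, whereas shares of reads are of raw counts.

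On the TMM scale genes with many reads fell more often than they rose, and genes with few reads did the opposite, with the turn between them at a level that depends on the scaling. Among the 74 models above 1000 CPM on average over the 12 libraries, 14 rose (18.9%) and 53 fell (71.6%), with a median log2 fold change of -0.80. Of these, 4 rose and 33 fell by at least 2-fold. The 487 models between 300 and 1000 CPM held 136 that rose and 264 that fell, with a median of -0.31, and 41 rose against 153 that fell by at least 2-fold. In the middle of the range, at 30 to 100 CPM, 34.1% of 3769 models rose and 37.0% fell.

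At the low end, between 1 and 3 CPM, 19.7% of 1174 models rose and 8.52% fell, with a median of 0.23. Fewer models were called there in all, where the counts are low. Between 3 and 10 CPM 30.6% of 1950 models rose and 14.7% fell, and at 10 to 30 CPM it was 36.9 and 27.1% of 2634. With the authors' factors and with library size only, too, more models fell than rose above 300 CPM and more rose than fell below 30 CPM. Above 1000 CPM it was 11 up and 46 down with the authors' factors and 19 up and 47 down with library size only. At 30 to 100 and at 100 to 300 CPM the balance turned with library size only, with 1938 up against 851 down in the lower of these classes and 932 up against 611 down in the higher.

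**Figure D2:**
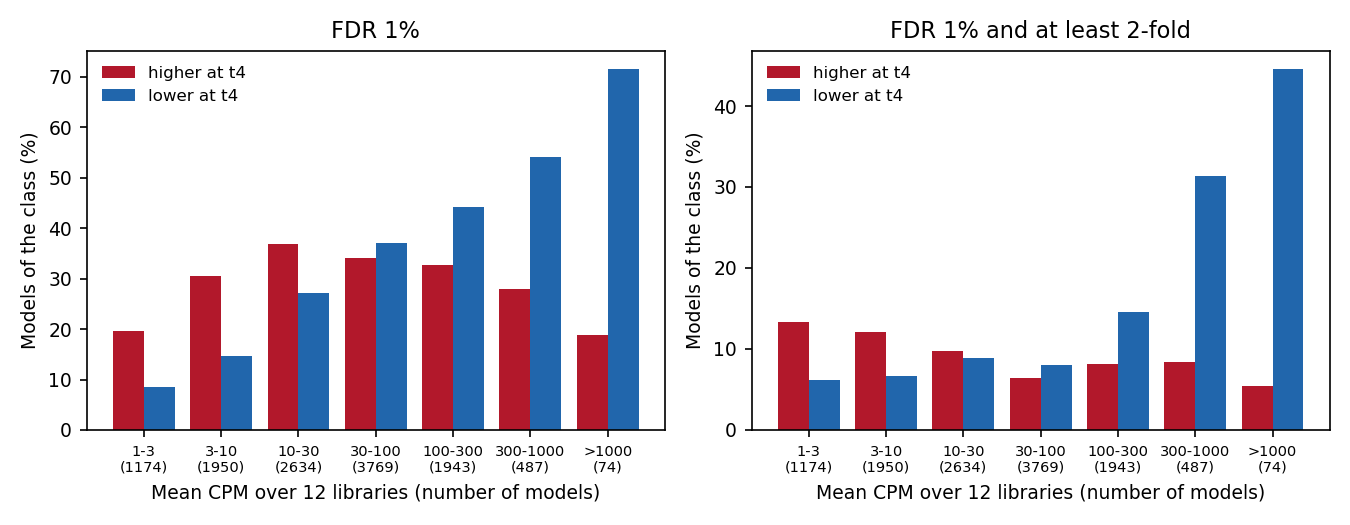
Gene models are grouped by mean CPM over the 12 libraries (horizontal axis), and bars give the share of each group (%) called higher or lower at t4 than at t1 on the TMM scale, at any fold (left) and past 2-fold (right). The share that fell at any fold grows with abundance, to 71.6% above 1000 CPM, and at 30 to 300 CPM the balance of risers and fallers turns when libraries are scaled by size only.

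Most of the genes that dominated active growth were lower at t4. Of the 100 models with the most reads at t1, 91 fell and 4 rose at t4, with a median log2 fold change of -1.50, and 70 fell by at least 2-fold while 0 rose by that much. With the authors' factors 76 of them fell and 6 rose. All of the 10 most abundant at t1 fell on the TMM scale, whereas 6 fell and 2 rose with the authors' factors. A list of models picked for being high at t1 leans toward falls by its choice, so these counts describe the list and were not tested. The 100 models with the most reads at t4 held 44 that rose and 41 that fell on the TMM scale, and 33 that rose and 40 that fell with the authors' factors. The lists overlapped in 47 of 100 models, in 25 of the 50 most abundant and in 297 (59.4%) of the 500 most abundant.

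The models past 2-fold converged in their share of the sequenced RNA. The 1096 that rose held 11.9, 12.6 and 13.1% of the reads in the t4 libraries, against 3.48, 3.54 and 3.43% in the t1 libraries. The 1207 that fell held 13.5, 12.9 and 12.9% at t4, against 32.2, 31.6 and 32% at t1. Thus both sets were of about equal weight in starved mycelium, whereas in growing mycelium the fallers outweighed the risers. These shares restate the contrast that chose the sets and are descriptions. The 4488 models that were not called held 22.5 ± 0.140% of the reads at t4 and 18.5 ± 0.0613% at t1 (SD, n = 3 each). All shares in this paragraph are of raw counts, without the TMM factors, so they are not changes on the TMM scale.

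The change was spread over the whole course. The risers took their largest step from ammonium depletion (t2) to glucose depletion (t3) more often than tested models at large did, whereas the fallers were close to the share over all models. Relative to t1, the models at least 2-fold up at t4 had a median log2 fold change of 0.26 by t2, 0.96 by t3 and 1.30 by t4. Those at least 2-fold down had medians of -0.43, -1.0 and -1.41 at the same stages. The t1 libraries stand in all 3 of these medians, and the comparison at t4 chose the models. The largest of the 3 steps was that from t2 to t3 for 591 of the 1096 risers (53.9%), against 231 (21.1%) for t1 to t2 and 274 (25%) for t3 to t4. Among the 1207 fallers it was t2 to t3 for 507 (42.0%), t1 to t2 for 445 (36.9%) and t3 to t4 for 255 (21.1%). Over all 12032 tested models it was t2 to t3 for 40.6%, t1 to t2 for 34.6% and t3 to t4 for 24.9%, and these shares are descriptions without a test. The steps, from day 2 to 5, day 5 to 9 and day 9 to 13, are not all of equal length. The share of reads on the 1096 risers averaged 3.48, 4.67, 8.69 and 12.5% over the stages t1 to t4, and that on the 1207 fallers 31.9, 24.7, 18.1 and 13.1%.

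The step from t2 to t3 uses neither t4 nor t1 libraries, so it measures the same models in samples that did not choose them. Over all tested models, 18.6% rose and 19.1% fell between t2 and t3 by the edgeR quasi-likelihood test at a false discovery rate of 1%. Of the 3872 models up at t4 against t1, 1883 rose from t2 to t3 (48.6%) and 43 fell (1.11%). Of the 3672 down, 1973 fell (53.7%) and 55 rose (1.5%). The shares were higher past 2-fold, with 762 of 1096 rising (69.5%) and 921 of 1207 falling (76.3%), and only 5 of those risers and 11 of those fallers went the other way. Among the models not called at t4 against t1, 6.55% rose and 6.19% fell. With the authors' factors, 1480 of 3301 risers rose from t2 to t3 and 1536 of 3440 fallers fell. With library size only, it was 2605 of 5859 and 1384 of 2403. The shares over all tested models are not given for these scalings. The libraries of the 4 stages come from 1 experiment and were fitted together, so the t2 and t3 libraries are separate samples but not a separate experiment.

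**Figure D3:**
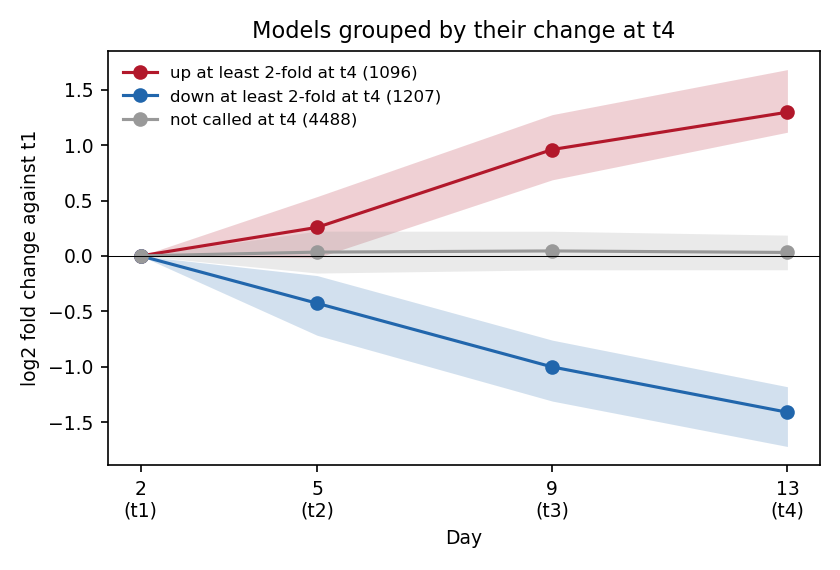
The lines follow the median log2 fold change against t1 (vertical axis) of the models that rose or fell by at least 2-fold at t4, over day 2 (t1), day 5 (t2), day 9 (t3) and day 13 (t4). The risers reach 0.26, 0.96 and 1.30 and the fallers -0.43, -1.0 and -1.41 at t2, t3 and t4, grey is the models not called, and shading spans the quartiles over models.

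The 4 models described singly were taken on the TMM scale among models past 2-fold whose libraries did not overlap. They were the largest rise and the largest fall in fold, and the largest gain and the largest loss in mean CPM. What their products do is not given by the files. They were chosen by this same contrast, so their values are a description and their adjusted p-values only place them in the fit.

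The model gw1.636.3.1 had the largest fold rise on the TMM scale, a rank that it did not keep with the authors' factors. It had 169, 149 and 149 scaled CPM in the t4 libraries, against 2.91, 2.04 and 2.06 in the t1 libraries. The raw counts behind these were 1867, 1757 and 1669 at t4, against 30, 19 and 25 at t1. The model was near the bottom of the expressed genes in growing mycelium, at rank 11024 of 12032, and at rank 1374 in starved mycelium. Its mean passed through 8.74 CPM at t2 and 44.0 CPM at t3, so that each stage was above the one before. The log2 fold change was 6.06 (SE 0.16, adjusted p = 1.19e-15, edgeR quasi-likelihood test), and with the authors' factors it was 3.70. Those factors were 0.873, 0.841 and 0.823 for this model in the t4 libraries, against 0.151, 0.123 and 0.190 in the t1 libraries. Another of the large TMM risers reached a log2 fold change of 5.82 with the authors' factors.

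The model fgenesh1_kg.6_#_158_#_isotig02309 had the largest gain in CPM on the TMM scale, a direction that turned with the authors' factors. It had 3764, 3720 and 3641 CPM at t4, against 1006, 1057 and 1094 CPM at t1, at rank 6 of the starved and rank 117 of the growing mycelium. The level was 992 CPM at t2 and 2005 CPM at t3, so that on this scale t2 lay no higher than t1. The log2 fold change was 1.82 (SE 0.06, adjusted p = 9.22e-15, edgeR quasi-likelihood test) with TMM but -0.55 (adjusted p = 5.28e-06) with the authors' factors in the same test. Those factors were 2.78, 2.79 and 2.55 for this model in the t4 libraries, against 0.451, 0.436 and 0.587 in the t1 libraries.

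The model gm1.4345_g had the largest fold fall on the TMM scale, a rank that it did not keep with the authors' factors. It had 0.632, 1.02 and 0.985 CPM at t4, from 7, 12 and 11 reads, against 111, 106 and 106 CPM at t1, from 1148, 989 and 1294 reads. The mean was 16.1 CPM at t2 and 2.39 CPM at t3, and the log2 fold change was -2.75 for t2 against t1 and -2.73 for t3 against t2. The model stood at rank 11987 in starved and rank 2377 in growing mycelium. The log2 fold change was -6.92 (SE 0.17, adjusted p = 6.00e-16, edgeR quasi-likelihood test), and -5.97 with the authors' factors. Another of the large TMM fallers had -7.61 with those factors.

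The model fgenesh1_kg.3_#_242_#_AAT91245.1 lost the most CPM on the TMM scale, a direction that turned with the authors' factors. It had 10925, 10151 and 10459 CPM at t4, against 20186, 20286 and 23138 CPM at t1. By CPM, which is not corrected for gene length or G/C content, it was the second most abundant model in both states. It declined through 19179 CPM at t2 and 15482 CPM at t3. The log2 fold change was -1.01 (SE 0.07, adjusted p = 2.76e-10, edgeR quasi-likelihood test) with TMM, but 0.27 (adjusted p = 0.000768) with the authors' factors in the same test. Those factors were 8.07, 7.61 and 7.34 for this model in the t4 libraries, against 16.1, 14.9 and 21.7 in the t1 libraries. The model was just past 2-fold, and its log2 fold change was -0.94 without the third t1 library and -0.98 without the second t4 library.

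**Figure D4:**
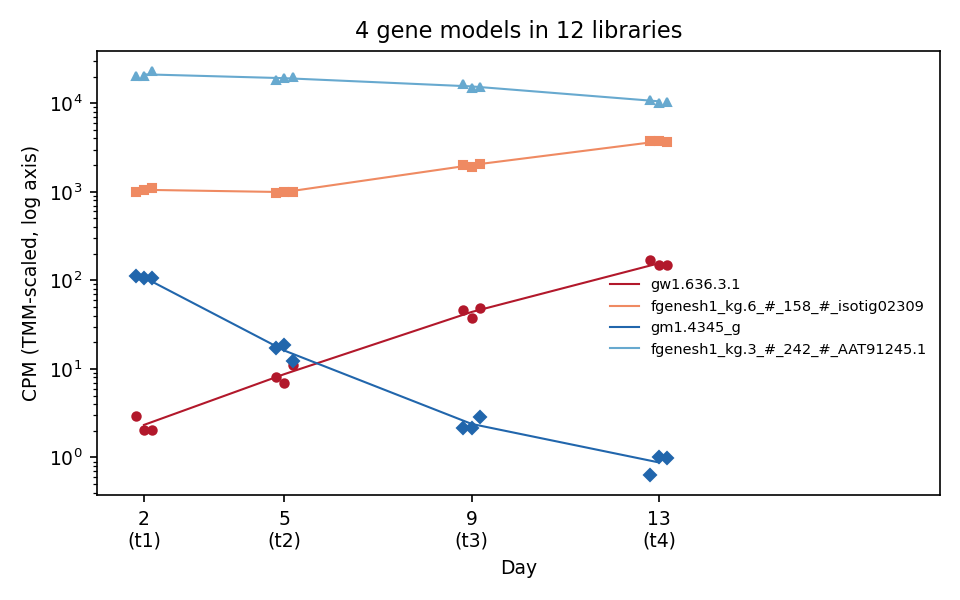
Points are TMM-scaled CPM in single libraries (log axis) of 4 gene models over day 2 (t1), 5 (t2), 9 (t3) and 13 (t4), and lines join the means of 3 libraries. The models gw1.636.3.1 and gm1.4345_g move in opposite directions by log2 fold changes of 6.06 and -6.92, while the other two (fgenesh1_kg models) turn direction with the authors' factors, to log2 fold changes of -0.55 and 0.27.

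Models with very large changes spanned a wide range of levels. The 22 models at least 16-fold up had 4.95 to 663 CPM at t4, with a median of 117, against 0.155 to 35.4 CPM at t1, with a median of 3.01. The 10 models at least 16-fold down had 0.0602 to 24.9 CPM at t4, with a median of 2.70, against 1.92 to 716 CPM at t1, with a median of 113. All 32 were called in the same direction with the authors' factors. No tested model was without reads in all 3 libraries of either state, and 1 had at most 3 reads over the 3 t4 libraries, against 63 reads over the t1 libraries.

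The choice between TMM and the authors' factors moved the values of most models by less than the median absolute change, and those of a minority by a lot. The fold change with the factors minus that with TMM had a median of -0.03 on the log2 scale, a 5th percentile of -0.56 and a 95th of 0.48, and its median absolute size was 0.17. For scale, the median absolute log2 fold change with TMM was 0.46 and the median SE 0.089. Both scalings called 3030 models up and 3083 down. A further 828 risers and 581 fallers were not called with the factors, 606 models were called with the factors only, and 14 turned from up to down and 8 from down to up. Past 2-fold, 1028 of the 1096 risers and 1167 of the 1207 fallers were called in the same direction with the factors. The factors themselves differed between stages, with a median log2 difference of 0.30 at t4 against t1 for the 2-fold risers, -0.02 for the 2-fold fallers and 0.15 for models not called. Their part in the calls of single models was not tested beyond this comparison.

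**Figure D5:**
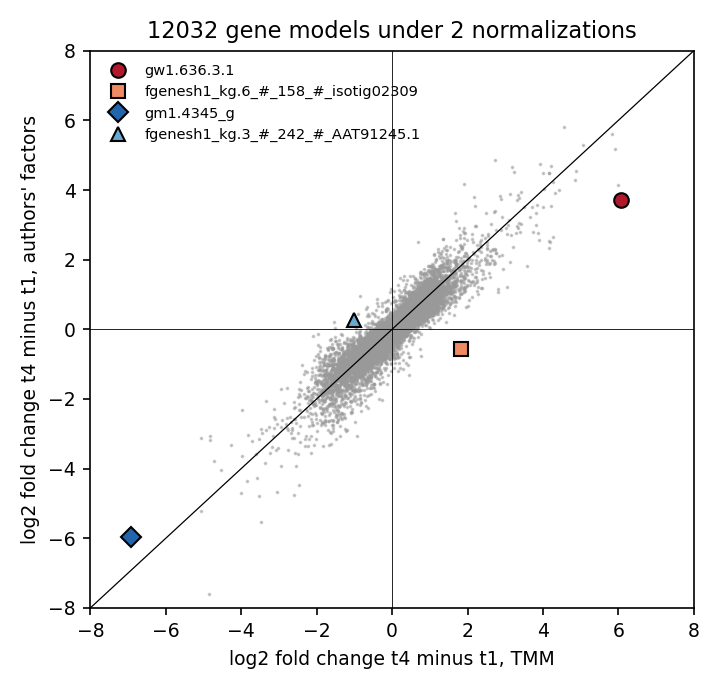
Each point is a gene model, with the log2 fold change at t4 against t1 under TMM on one axis and under the authors' factors as offsets on the other. Most points lie near the diagonal, with a median absolute difference of 0.17, the black line is equality, and the 4 large symbols are the models named in the legend, of which the fgenesh1_kg models lie across the zero line at -0.55 and 0.27 with the authors' factors.

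The model names carry several prefixes, and the classes they form differ in level. Of the models beginning fgenesh1_kg, 31.8% rose and 39.2% fell, and their median level was 84.1 CPM. Of those beginning gm, 35.0% rose and 20.1% fell at a median of 12.3 CPM, and of those beginning gw, 27.0% rose and 17.8% fell at a median of 6.70 CPM. The classes with lower levels thus had more risers than fallers, as the low abundance classes did, and the part of the prefix itself was not tested.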

How the data were processed

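RNA was sequenced as single reads. Per the submitters' processing notes and the methods of the study, reads were checked with FastQC (0.11.2) and freed of ribosomal sequence. They were aligned to the gene models with TopHat2 (2.0.13) and Bowtie2 (2.2.3.0), with 1 transcriptome hit allowed per read. Near-identical copies are therefore uncertain. Alignments were sorted and converted with SAMtools (0.1.19), and reads were counted by strand on coding sequence with HTSeq (0.6.1). The authors deposited raw counts per gene model, which were tested here. They also deposited rlog values on a log2 scale and a ratio per model and library, the normalization factors made with EDASeq and DESeq2 (1.14.1) to correct for depth and for the length and G/C content of models, both holding 12103 models. The rlog values were used in an alternative only. Fold changes and levels here come from the deposited counts.

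Models whose counts averaged 11 or more were normalized with TMM and fitted over 12 libraries with edgeR (4.0.16, R 4.3.3), with time point as the only term. Adjusted p-values are Benjamini-Hochberg values over 12032 models, and CPM are scaled by TMM with a prior count of 2 where logged. Standard errors come from the F statistic. Single values were compared by exact permutation of libraries. The 4 models named were the extremes in fold and in CPM difference among those past 2-fold without overlap between libraries. The members, lists and rules were chosen with earlier results of these data known. The fit was tested on simulated data. Alternatives were DESeq2 (1.42.0), other scalings, count minimums, a false discovery rate of 5%, the 6 libraries alone, the replicate number as a block, glmTreat (through edgeR, with limma 3.58.1) and each t4 and t1 library left out in turn. The study's functional gene groups were not analysed here, because no pairing of model names with protein identifiers was used, and neither were the libraries of the other species.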

Additional observations from a re-analysis of the deposited data

Results flagged for a closer look

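Of the 1689 models with reads but a mean count under 11, which no comparison above uses, 11 had reads in every t4 library and in no t1 library, with 84 reads over the 3 t4 libraries. They are listed because these models lie outside the tests and had no reads at t1. The opposite pattern, reads in every t1 library and in no t4 library, was seen in 8 models, with 54 reads at t1, a similar number at similarly few reads. In raw counts, not scaled to a common size, each t4 library lay above each t1 library in 164 of the 1689 models and below in 67. Over the tested models, in scaled CPM, the shares were 38% above and 34.7% below. These counts were not tested. At such depths an absence allows up to 3 reads per library, so no fold is given.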

How the results depend on the processing

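The median log2 change of all tested models, 0.04 with TMM, was 0.013 with DESeq2, 0.013 with its size factors in edgeR, 0.012 with the authors' factors, 0.10 with upper-quartile factors and 0.32 with library size only, and 0.042 to 0.052 with each of the 6 t4 and t1 libraries left out in turn. Scaling by library size only, chosen after seeing the data, gave 5859 risers and 2403 fallers, 1898 and 768 of them past 2-fold, in place of 3872 and 3672, and 1096 and 1207. Testing against 2-fold gave 469 and 751. The authors' factors turned fgenesh1_kg.6_#_158_#_isotig02309 to -0.55 and fgenesh1_kg.3_#_242_#_AAT91245.1 to 0.27, and took the difference in the share of the 10 most abundant models to -0.33 points, against -2.24. The cause was not tested. With each of these 6 left out, and never one of t2 or t3, risers numbered 3558 to 3722, fallers 3410 to 3542, 2-fold risers 1035 to 1148 and 2-fold fallers 1183 to 1234, and the share of reads redistributed was 24.7 to 25.4%. DESeq2 called 3376 up and 3701 down, of which 3375 and 3608 were shared with edgeR. The other alternatives kept each count of calls within 1.5 times. Samples with the same replicate number had correlations of their deviations at t4 against t1 of -0.095, 0.047 and -0.011. Those with unlike numbers had -0.073 to 0.070. So few correlations show no pairing but cannot exclude one. The replicate block gave 3804 up and 3638 down, 1094 and 1209 past 2-fold, with 1803 rising and 1922 falling from t2 to t3. The 3 libraries per stage limit single-library measures to an exact p of 0.1, and models under a mean count of 11 are not resolved.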
